A study of Chlorocebus aethiops with 12 samples.

Results

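The change that MDFIC made to the transcript response to dexamethasone (Dex) was measured in COS-1 cells, a fibroblast-like kidney line of the African green monkey. All 12 arrays of the series entered the comparison, in 4 groups of 3 biological replicates. The groups were cells transfected with the glucocorticoid receptor (GR) and given vehicle, the same cells given Dex, cells transfected with GR and MDFIC and given vehicle, and those given Dex. Dex was used at 100 nM for 6 h, starting 48 h after transfection with FuGENE6. All groups carried GR and had been moved to charcoal-stripped serum, which lowers serum steroids, the day after transfection. The transfection was transient, and the share of cells that took up each construct was not given in the sources used here. In such bulk RNA, fewer responding cells and less RNA per cell cannot be told apart.

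GR is a nuclear receptor that sits in the cytoplasm with chaperones until a glucocorticoid such as Dex binds it. It then enters the nucleus and raises or lowers the transcription of its target genes, by binding DNA or by acting with other transcription factors. MDFIC, named for the domain it shares with the inhibitor of the MyoD family, was first described as a regulator of viral and cellular transcription, and it has been reported to bind GR. The design therefore asks which Dex responses of a cell with GR differ once MDFIC is present, and which do not.

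For each transcript the Dex effect was the mean log2 level with Dex minus that with vehicle. The change by MDFIC was the Dex effect in GR+MDFIC cells minus the Dex effect in GR cells, which are 4 separate groups of arrays with no shared control. Levels are log2 processed signals with the array's own 75th percentile subtracted, so a level of 0 is a spot as bright as that percentile. Of 32379 accessions on the array, 20230 (62.5%) had a probe well above background on all 12 arrays and were tested with limma. A difference was called at a Benjamini-Hochberg adjusted p under 0.05. The probes were designed for human transcripts and were hybridised to monkey RNA. The files pair no gene symbols with the accessions, so transcripts are given by accession and could not be grouped by pathway or set against cell type markers. For the same reason the levels of GR and MDFIC themselves were not checked against the labels.

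The arrays lay on 3 slides, which follow the groups in part. Slide 1 held the 3 vehicle arrays and Dex replicate 1 of GR cells, and slide 2 held GR Dex replicates 2 and 3 with GR+MDFIC vehicle replicates 1 and 2. Slide 3, read on another scanner, held GR+MDFIC vehicle replicate 3 and the 3 GR+MDFIC Dex arrays. The mean 75th percentile signal was 386 on slide 3, against 850 on slide 1 and 868 on slide 2. The share of spots well above background was 70.3% to 75.2% on every array, and replicates correlated at 0.991 to 0.998 across transcripts. With slide as a fixed block, the GR effect comes from slide 1 alone and the GR+MDFIC effect from slide 3 alone. That value is given below as the within-slide value.

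The Dex response differed between the 2 kinds of cells for 3 transcripts of 20230 (0.0148%), and all 3 fell with Dex in GR+MDFIC cells with no called change in GR cells (limma, Benjamini-Hochberg adjusted). Each was therefore a gained response. The numbers of called transcripts whose response was lost, weakened, strengthened or reversed with MDFIC were all 0. Transcripts that were not well above background on some arrays, as when a level drops out in 1 group, were not tested. With the filter asked of at least 1 group, 14 differences were called, 11 gained, 2 lost and 1 weakened. That filter lets in transcripts through the group where they are high, which favours differences between groups. Its added calls therefore do not show how many differences the main filter missed. At an unadjusted p under 0.05, 1812 transcripts (8.96%) had a difference. In both kinds of cells 1433 transcripts were called with Dex with the same sign. Of these, 1352 (94.35%) had a 95% interval of the difference inside 1.5-fold either way, against 76.61% of all tested transcripts. The 1352 are called retained below. The margin of 0.585 on the log2 scale exceeds the median sizes of the 1433, 0.382 without and 0.425 with MDFIC. A small response could therefore change much in size and still lie inside it. By mean size, 488 of 488 rises and 445 of 446 falls under 0.5 were retained. Of responses of at least 1, 67 of 96 rises and 9 of 12 falls were. The share therefore does not show that small responses were close in size.

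**Figure D1:**
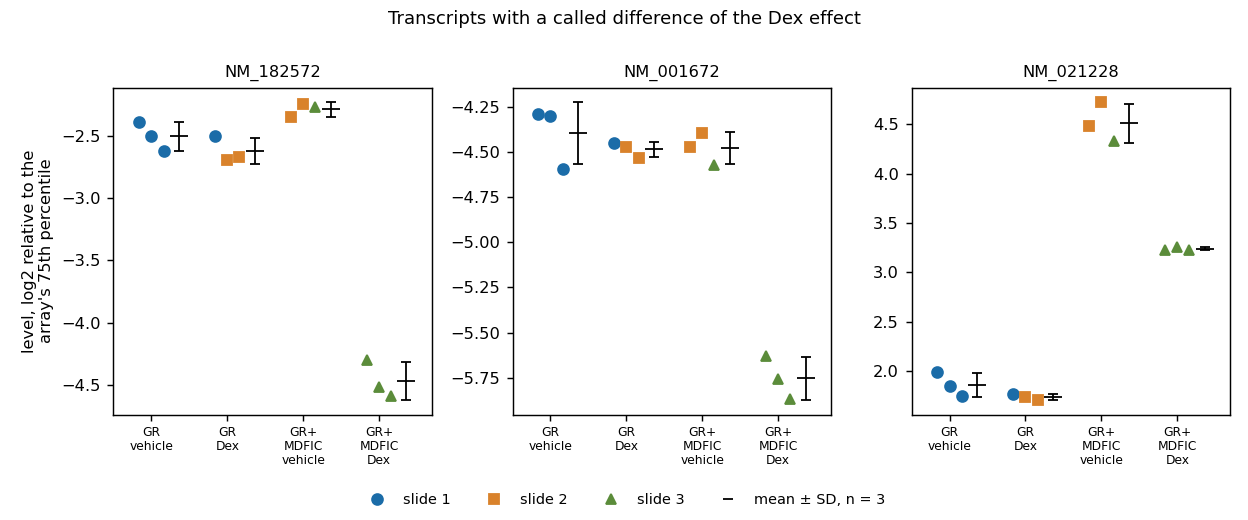
Levels (log2, with each array's 75th percentile subtracted) of the 3 transcripts with a called difference, by group; points are arrays with the slide as colour and shape, and bars are the mean ± SD of 3 replicates. The GR+MDFIC Dex arrays lie below every other array for NM_182572 and NM_001672, and below only the GR+MDFIC vehicle arrays for NM_021228.

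The largest gained response was a fall of NM_182572. Its levels in GR cells were -2.39, -2.50 and -2.62 with vehicle and -2.50, -2.69 and -2.67 with Dex. In GR+MDFIC cells they were -2.35, -2.24 and -2.27 with vehicle and -4.30, -4.52 and -4.59 with Dex. The 3 GR+MDFIC Dex arrays were thus the lowest of all 12, and the other 3 groups lay close together. Over all tested transcripts, 5.14% had these 3 arrays below all 9 others. The Dex effect was -0.11 ± 0.09 in GR cells (SE, limma, Benjamini-Hochberg adjusted p = 0.533) and -2.19 ± 0.09 in GR+MDFIC cells (adjusted p = 2.04e-07), a 4.55-fold fall. Their difference was -2.07 ± 0.12 on the log2 scale (SE, 95% interval -2.35 to -1.80, limma, Benjamini-Hochberg adjusted p = 0.00021). Slide 3 holds all 3 low arrays, and its vehicle array, at -2.27, stood with the vehicle arrays of slide 2. The within-slide difference was -2.21 (limma, Benjamini-Hochberg adjusted p = 0.00447). It was called in all 30 alternatives that gave a value, but its size fell to -1.04 with normexp background correction and quantile scaling, where the Dex effect in GR+MDFIC cells was -1.13.

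A dimmer transcript, NM_001672, also fell with Dex in GR+MDFIC cells. It was at -4.29, -4.30 and -4.59 in GR vehicle, -4.45, -4.47 and -4.53 in GR Dex, and -4.47, -4.39 and -4.57 in GR+MDFIC vehicle. The GR+MDFIC Dex arrays read -5.63, -5.76 and -5.87, again the lowest of the 12. All 12 values lay below -4.085, the median level of the 5058 dimmest tested transcripts. The Dex effect was -0.09 ± 0.09 in GR cells (SE, limma, Benjamini-Hochberg adjusted p = 0.644) and -1.28 ± 0.09 in GR+MDFIC cells (adjusted p = 8.4e-06), a 2.42-fold fall. The difference was -1.19 ± 0.13 (SE, 95% interval -1.47 to -0.90, limma, Benjamini-Hochberg adjusted p = 0.0268). The within-slide difference was -1.13 and was not called (limma, Benjamini-Hochberg adjusted p = 0.135). With normexp background correction and quantile scaling the difference was -0.36 (limma, Benjamini-Hochberg adjusted p = 0.21) and the Dex effect with MDFIC was -0.38. The call was also lost on leaving out GR vehicle replicate 2, any of the 3 GR Dex arrays, or GR+MDFIC vehicle replicate 1 or 2.

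NM_021228 differed between the 2 kinds of cells before Dex was given. It was at 1.99, 1.85 and 1.75 in GR vehicle and at 1.77, 1.74 and 1.71 in GR Dex. With MDFIC the vehicle arrays read 4.48, 4.72 and 4.33, which is 6.26-fold above GR vehicle, and the Dex arrays read 3.23, 3.26 and 3.23. All 6 GR+MDFIC arrays lay above all 6 GR arrays, and within the GR+MDFIC cells Dex lowered the level 2.41-fold, a Dex effect of -1.27 ± 0.09 on the log2 scale (SE, limma, Benjamini-Hochberg adjusted p = 9.45e-06). In GR cells the Dex effect was -0.12 ± 0.09 (adjusted p = 0.499). The difference was -1.15 ± 0.13 (SE, 95% interval -1.43 to -0.86, limma, Benjamini-Hochberg adjusted p = 0.0273).

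A second probe of NM_021228 did not show this. Its levels were between -1.45 and -1.26 on all 12 arrays, with Dex effects of 0.012 without and -0.012 with MDFIC. Its difference was -0.02 (95% interval -0.17 to 0.12, limma, Benjamini-Hochberg adjusted p = 0.925). The called value of this accession therefore holds for 1 of its 2 probes. The within-slide difference of the called probe was -0.999 (limma, Benjamini-Hochberg adjusted p = 0.111). Its call was lost on leaving out GR vehicle replicate 2 or 3, any GR Dex array, GR+MDFIC vehicle replicate 1 or GR+MDFIC Dex replicate 1. The other 2 gained accessions had 1 tested probe each.

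Dex effects in each kind of cell give the background to these counts. In GR cells 1824 transcripts (9.02%) were called with Dex, and in GR+MDFIC cells 3284 (16.2%). The order of these counts turned with slide as a fixed block, to 996 and 915. The GR+MDFIC count also moved to between 1922 and 5104 on leaving out 1 array. The 1433 called in both with the same sign were 7.08% of those tested, 880 of them rises and 553 falls. The retained set of 1352 was 6.68% of those tested and comprised 814 rises and 538 falls. It made up 74.12% of the transcripts called in GR cells and 41.17% of those called in GR+MDFIC cells. Its median size on the log2 scale was 0.368 without MDFIC and 0.404 with it. One transcript was called in both with opposite signs, and its difference was not called.

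**Figure D2:**
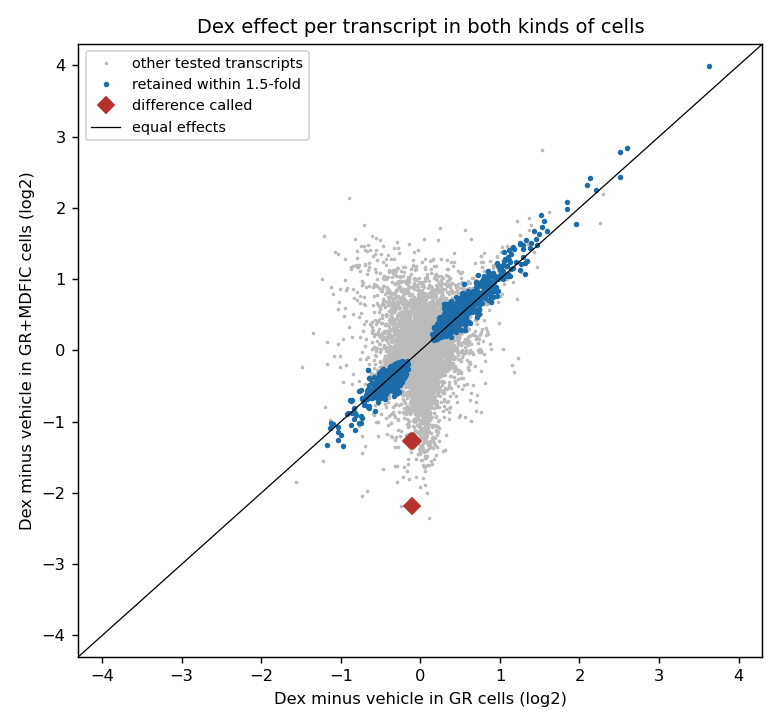
Dex effect in GR+MDFIC cells (vertical axis, log2) against that in GR cells (horizontal axis, log2) for the 20230 tested transcripts, with the line of equal effects. The 1352 retained transcripts follow the line by the way they were chosen, and the 3 called differences, 2 of which overlap, lie near 0 on the GR axis and below 0 on the GR+MDFIC axis.

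**Figure D3:**
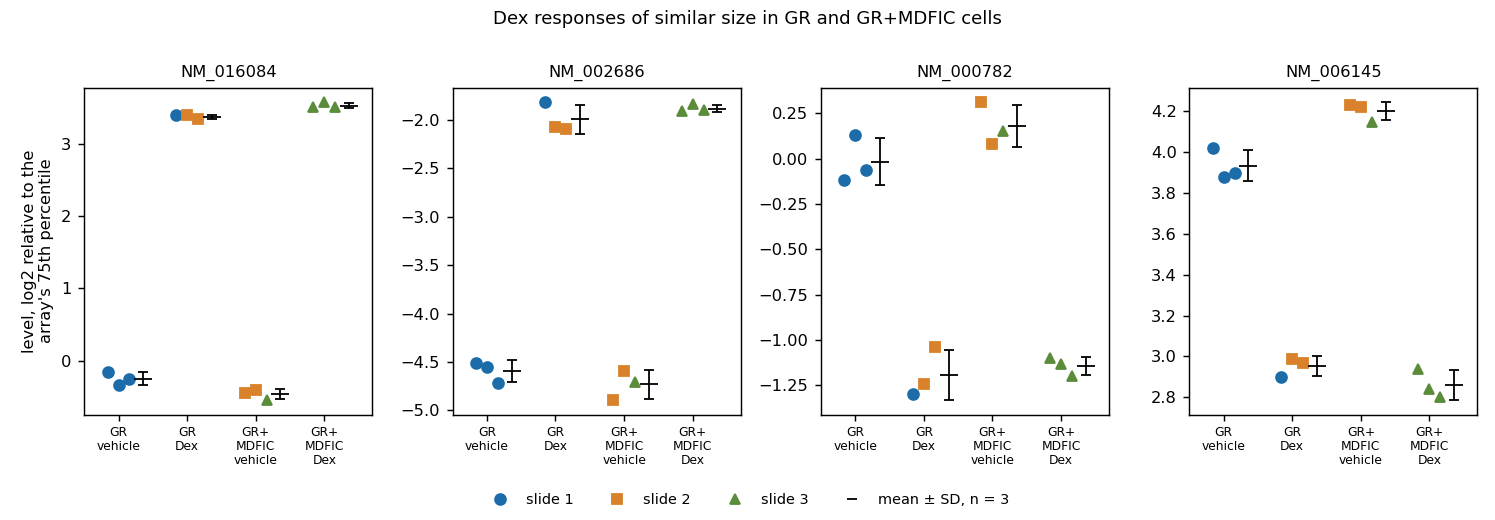
Levels (log2, with each array's 75th percentile subtracted) of the 2 rises and 2 falls with the largest mean Dex effect among retained NM accessions; points are arrays with the slide as colour and shape, and bars are the mean ± SD of 3 replicates. In all 4 panels the Dex arrays of both kinds of cells lie apart from the vehicle arrays, on the same side.

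The 4 retained examples are the 2 largest rises and 2 largest falls by mean size of both effects among accessions starting with NM, chosen by their values. The largest rise was that of NM_016084. Its vehicle levels were -0.16, -0.34 and -0.25 without MDFIC and -0.44, -0.41 and -0.54 with it. With Dex they reached 3.39, 3.39 and 3.34, and 3.50, 3.57 and 3.51. The 6 Dex arrays thus lay close together far above the 6 vehicle arrays. The rise was 12.3-fold without and 15.9-fold with MDFIC, by 3.62 ± 0.06 and 3.99 ± 0.06 on the log2 scale (SE). The difference was 0.36 ± 0.08 (95% interval 0.19 to 0.54, limma, Benjamini-Hochberg adjusted p = 0.36). It was called in 1 of the fits that left out an array (limma, Benjamini-Hochberg adjusted p = 0.0471). A second probe rose by 3.76 and 3.73, with a difference of -0.03 (95% interval -0.29 to 0.22).

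NM_002686 rose from -4.51, -4.55 and -4.72 to -1.82, -2.07 and -2.09 in GR cells. With MDFIC it rose from -4.89, -4.59 and -4.71 to -1.91, -1.84 and -1.90. The Dex arrays of both kinds of cells overlapped. The rise was 6.06-fold and 7.16-fold, and the difference was 0.24 ± 0.13 (SE, 95% interval -0.06 to 0.54, limma, Benjamini-Hochberg adjusted p = 0.614). The within-slide difference was 0.04.

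Among retained falls, NM_000782 went from -0.12, 0.13 and -0.06 to -1.30, -1.24 and -1.04 in GR cells. With MDFIC it went from 0.31, 0.08 and 0.15 to -1.10, -1.13 and -1.20. Both the vehicle arrays and the Dex arrays of the 2 kinds of cells overlapped. The fall was 2.26-fold and 2.51-fold, and the difference was -0.15 ± 0.13 (SE, 95% interval -0.43 to 0.13, limma, Benjamini-Hochberg adjusted p = 0.723). A second probe had Dex effects of -1.145 and -1.44, with a larger difference of -0.30 (95% interval -0.57 to -0.02, limma, Benjamini-Hochberg adjusted p = 0.571). The brighter NM_006145 fell from 4.02, 3.88 and 3.90 to 2.90, 2.99 and 2.97 in GR cells. With MDFIC it fell from 4.23, 4.22 and 4.15 to 2.94, 2.84 and 2.80. Its vehicle arrays were higher in GR+MDFIC cells without overlap, while its Dex arrays overlapped. The fall was 1.97-fold and 2.53-fold, and the difference was -0.36 ± 0.08 (SE, 95% interval -0.54 to -0.19, limma, Benjamini-Hochberg adjusted p = 0.36). This difference was called in 1 of the fits that left out an array (limma, Benjamini-Hochberg adjusted p = 0.028).

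Retained responses could also be read on second probes, which the choice of members did not use. Of the 1352 retained accessions, 367 had a second tested probe. On that probe both Dex effects had the sign of the first for 307 and were called in both kinds of cells for 129. The difference lay inside 1.5-fold on 269 of the 367 second probes and was called on 1. Over all 4515 accessions with several tested probes, the second probe had the same signs for 2146, was called in both for 240 and lay inside 1.5-fold for 3530. Retained accessions thus had larger shares for the signs and the calls. Their choice by Dex calls of the same sign, on the same arrays, favours this. Those shares therefore do not show that responses kept their size. For the 1.5-fold interval the share of retained accessions was no higher than over all accessions with several tested probes.

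Among responses called in both kinds of cells, the GR+MDFIC effect was more often the larger one, while no single difference was called. Sizes were also larger in GR+MDFIC cells outside these responses. Over all tested transcripts the median size of the Dex effect was 0.095 without and 0.1255 with MDFIC. Among transcripts called in neither kind of cell it was 0.079 and 0.098. The larger sizes were therefore not particular to called responses. Responses called in both kinds of cells were grouped by the mean size of their 2 effects. Of 96 rises of at least 1 on the log2 scale, 75 had the larger effect in GR+MDFIC cells. Their median Dex effects were 1.14 without and 1.31 with MDFIC, and the median difference was 0.168. The 95% interval of the difference excluded 0 towards a larger rise with MDFIC for 29 and towards a smaller one for 1. Of these 96, 67 were retained.

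The median difference was lower among smaller responses. It was 0.089 for 296 rises between 0.5 and 1, of which 216 were larger with MDFIC, and 0.024 for 488 rises under 0.5, of which 301 were. As a ratio of the effects the median was no higher for rises of at least 1, at 1.128, than for rises between 0.5 and 1, at 1.149. Among falls, where a value above 0 is a larger fall with MDFIC, it was 0.046 for 95 falls between 0.5 and 1, of which 63 were larger with MDFIC. It was 0.007 for 446 falls under 0.5, of which 236 were, and within slides it was -0.0026 with 218. Only 12 falls reached 1, with a median difference of 0.171 and 9 larger with MDFIC. The median for rises of at least 1 stayed between 0.145 and 0.198 on leaving out each array. Within slides it was 0.114, with 71 of the 96 larger with MDFIC. These are counts over transcripts that share the same 12 arrays, and no test was made of them.

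**Figure D4:**
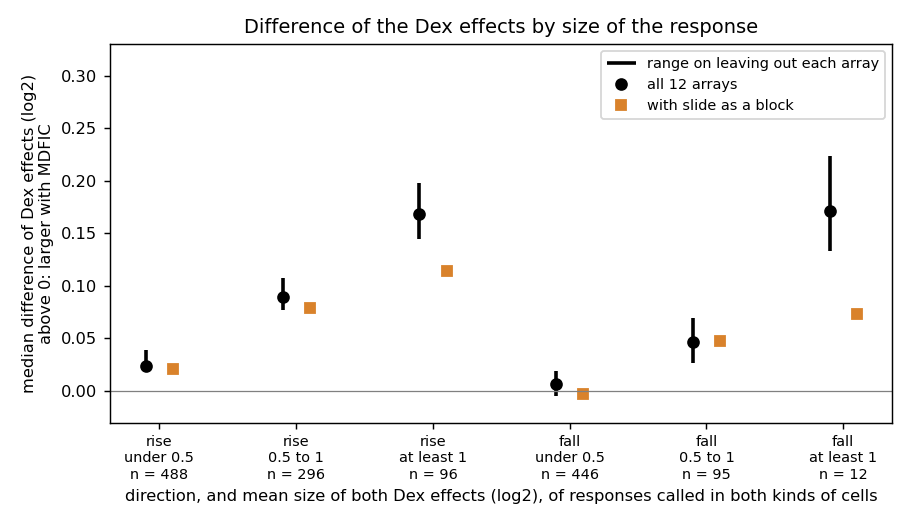
Median difference of the Dex effects (log2, above 0 means a larger response with MDFIC) for responses called in both kinds of cells, by direction and mean size; circles use all 12 arrays, bars span the values on leaving out each array, and squares have slide as a block. The median is 0.168 for rises of at least 1 and 0.024 for rises under 0.5, and the group of falls of at least 1 holds only 12 transcripts.

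The 81 responses called in both kinds of cells but not retained were larger than the retained ones, with median sizes of 0.798 without and 0.955 with MDFIC. They comprised 66 rises and 15 falls, and the 95% interval of the difference excluded 0 for 34. It also excluded 0 for 97 of the 1352 retained responses. The brightness of a probe went with how narrow its interval was. In the 5058 dimmest of the tested transcripts by mean level, the median SE of the difference was 0.229, 35.3% had an interval inside 1.5-fold, and 147 of 202 responses called in both were retained. In the 5058 brightest the median SE was 0.084, the share was 98.1%, and 304 of 306 were retained. Of the 478 transcripts with a difference of at least 1 on the log2 scale in either direction, 332 were among those dimmest transcripts and 1 among the brightest.

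A response called in GR cells alone is not by itself a response lost with MDFIC. There were 390 such transcripts, 181 rises and 209 falls, and limma with Benjamini-Hochberg adjustment called the difference for 0 of them. The unadjusted 95% interval excluded 0 for 89 of the 390, against 1812 of the 20230 tested. A call in 1 kind of cell and none in the other favours a difference, so the choice of the 390 raises that share. The GR+MDFIC effect had the same sign for 357 of the 390, against 13640 of all tested. The median size of the 390 was 0.278 without MDFIC against 0.145 with it. For 320 (82.05%) the interval lay inside 1.5-fold, against 76.61% of all tested. The margin of 0.585 on the log2 scale exceeds that median, so a response lost outright could lie inside it. The share therefore cannot tell whether these responses were lost. The sizes in GR cells chose these transcripts and are higher for that reason.

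The largest rise in this set among NM accessions was that of NM_032109. It went from -5.17, -5.60 and -5.22 to -4.29, -4.40 and -4.34 in GR cells, with no overlap. With MDFIC it went from -4.95, -5.12 and -4.62 to -4.56, -4.63 and -4.36, and the groups overlapped. The difference was -0.61 ± 0.20 (SE, 95% interval -1.05 to -0.16, limma, Benjamini-Hochberg adjusted p = 0.539). The largest fall was that of NM_178835. It went from -3.87, -3.79 and -3.73 to -4.25, -4.59 and -4.49 in GR cells, and from -4.01, -4.04 and -3.93 to -4.29, -4.33 and -4.16 with MDFIC. Neither pair of groups overlapped, and the fall was smaller with MDFIC by 0.38 ± 0.12 (SE, 95% interval 0.12 to 0.65, limma, Benjamini-Hochberg adjusted p = 0.539). The within-slide differences of these transcripts were -0.94 and 0.13.

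Without a slide block, 1850 transcripts were called in GR+MDFIC cells alone, 713 rises and 1137 falls. With the block that larger number was not seen, since the Dex calls were then 915 with MDFIC and 996 without, 608 of them shared with the same sign. In the fit without the block, limma with Benjamini-Hochberg adjustment called the difference for 3 of the 1850, the gained responses above. Of the 1850, 673 had an unadjusted 95% interval that excluded 0, against 1812 of all 20230 tested (8.96%). The transcripts were chosen by the same 2 effects that make up the difference, which raises that share. The GR effect had the same sign for 1556, against 13640 of all tested. For 1229 (66.43%) the interval lay inside 1.5-fold, against 76.61% of all tested. Median sizes were 0.133 without and 0.321 with MDFIC, of which the latter chose the transcripts. On GR+MDFIC vehicle replicate 3, the vehicle array of slide 3, 544 of the 1850 (29.41%) were nearer to the GR+MDFIC Dex arrays, all of slide 3, than to the vehicle arrays of slide 2. The share over all tested transcripts was higher, at 51.79%. Such nearness held for 16 of the 1352 retained transcripts (1.18%) and for 0 of the 3 gained ones. All of these sets, the 1850 included, were chosen by a Dex call that used the same array, so their low shares are a description.

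Both examples of this set had a vehicle array of slide 3 that stood apart. NM_003226 was at -4.45, -4.49 and -4.41 in GR vehicle and -2.94, -3.23 and -3.13 in GR Dex. In GR+MDFIC cells the vehicle arrays read -3.94, -4.37 and -2.35, the last being that of slide 3, and the Dex arrays -1.99, -2.07 and -2.10. The rise was 1.35 ± 0.39 in GR cells (SE, limma, Benjamini-Hochberg adjusted p = 0.0618) and 1.498 ± 0.39 in GR+MDFIC cells (adjusted p = 0.0279), but 0.29 within slide 3. The difference was 0.15 ± 0.55 (SE, limma, Benjamini-Hochberg adjusted p = 0.944). It was 0.75 and called without that vehicle array (adjusted p = 0.0261), and -1.21 and not called within slides (limma, Benjamini-Hochberg adjusted p = 0.125).

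NM_001005567 was between -4.18 and -3.80 on the 6 GR arrays. Its GR+MDFIC vehicle arrays read -0.96, -0.92 and -3.05 and the Dex arrays -3.11, -3.19 and -5.41. Replicate 3 was the lowest array of both GR+MDFIC groups. The Dex effect was -2.26 ± 0.65 with MDFIC (SE, limma, Benjamini-Hochberg adjusted p = 0.0411) and -0.09 ± 0.65 without. The difference was -2.17 ± 0.92 (SE, 95% interval -4.22 to -0.12, limma, Benjamini-Hochberg adjusted p = 0.547), and -0.89 within slides.

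The number of called differences rested on GR+MDFIC vehicle replicate 3. Without it the GR+MDFIC vehicle arrays were all on slide 2 and the Dex arrays all on slide 3, and 1142 differences were called. Of these, 1032 were gained, 35 lost, 3 weakened, 41 strengthened, 24 reversed and 7 called in neither kind of cell. On the array left out, 1029 of the 1142 (90.11%) were nearer to the Dex arrays of its own slide than to the vehicle arrays of slide 2, against 51.79% of all tested transcripts. Leaving out GR+MDFIC Dex replicate 2 gave 55, and leaving out replicate 3 of that group gave 9. The other 9 arrays, each left out in turn, gave between 1 and 4. With slide as a block 17 differences were called, 7 gained, 8 lost and 2 reversed, of which 1 was among the 3 above. The median size of those 17 was 1.78 within slides and 0.62 without the block. Slide and the GR+MDFIC Dex group cannot be told apart except through that 1 vehicle array.

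**Figure D5:**
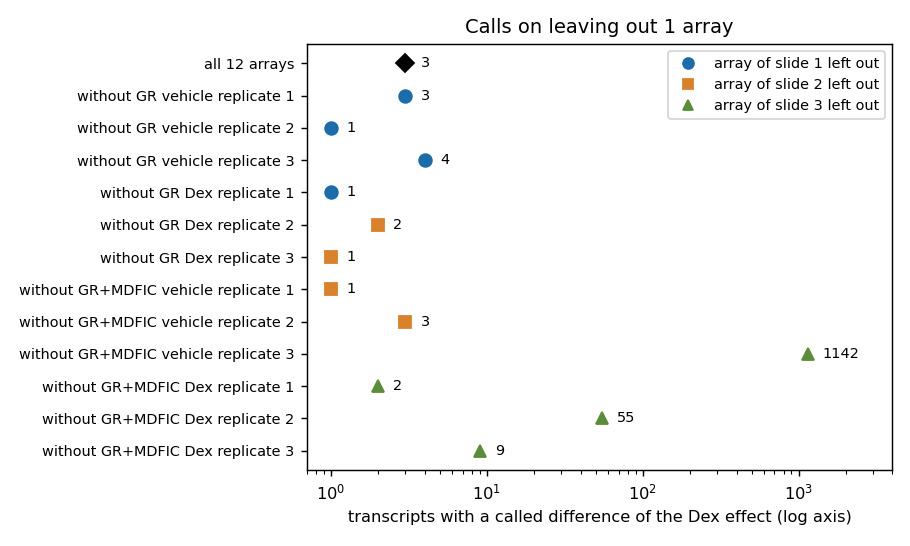
Transcripts with a called difference of the Dex effects (limma, log axis) with all 12 arrays and on leaving out each array in turn, with the slide of that array as colour and shape. The count is 3 with all arrays, 1142 without GR+MDFIC vehicle replicate 3, and 55 and 9 without GR+MDFIC Dex replicates 2 and 3.

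The retained set was also counted by kind of accession. Accessions starting with NM, which RefSeq uses for messenger RNA, were 14601 of the tested transcripts, and 1164 of them (7.97%) were retained. Those starting with NR, used for non-coding RNA, were 637, with 33 retained (5.18%), and 155 of the 4992 other accessions (3.11%) were. The 3 gained accessions were all of the NM kind. The precision of the whole comparison is set by 3 arrays a group: the median SE of the difference was 0.1075, its 95% interval reached a median of 0.239 to either side, and the smallest called difference was 1.15 in size.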

How the data were processed

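Each array's deposited file holds linear spot intensities for 45015 spots, 1639 of them controls. Per the file headers, Agilent Feature Extraction gave a background-subtracted processed signal with no scaling between arrays. The submitters' processing notes name version 12. In the headers slide 3 has 12.0.3.1, and the other 2 slides have 12.0.0.7. The deposited spot flags are other values of 0 or 1 that, per the file headers, mark spots as not uniform, saturated or well above background. The series-wide deposited values equal these intensities.

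Processed signals were put on the log2 scale, and each array's 75th percentile of non-control spots was subtracted. Spots of 1 probe were averaged, 27 outlier values were dropped, and the 1 saturated spot was kept. Each group had to keep at least 2 arrays. Of 25916 probes well above background on all 12 arrays, the probe of highest mean represented its accession.

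A group-means model was fitted in limma 3.58.1 (R 4.3.3, the data.table package at version 1.17.8) with 8 residual degrees of freedom, or 6 with slide as a block. Tests were two-sided, with Benjamini-Hochberg adjustment over all 20230 transcripts. Scripts were tested on simulated data, and figures were drawn with matplotlib 3.10.9 (Python 3.11.15). The labels call the replicates biological. Labelling with Cy3 started from 500 ng of RNA, per the labels.

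The comparison, lists and rules were chosen with earlier results of these data known. The rule for named transcripts asked for every called difference, the 12 largest retained responses, members of gene lists and the genes for GR and MDFIC. With no symbols or sequences paired to the accessions here, gene lists, cell type markers, promoter motifs and the check of GR and MDFIC by name were not run. Named transcripts were instead, after values were seen, the 3 called differences, 2 rises and 2 falls among retained responses, and the largest rise and fall called in 1 kind of cell alone, all with NM accessions.

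Alternatives changed the scaling, background correction, filter, probe rule, source of values, slide and replicate blocks, variance model, thresholds and margin, or left out each array.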

Additional observations from a re-analysis of the deposited data

Results flagged for a closer look

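For 3 transcripts the Dex effect differed between the 2 kinds of cells by the test of the difference itself (limma, Benjamini-Hochberg adjusted p under 0.05, among 20230 tested). The Dex effect in GR+MDFIC cells minus that in GR cells was -2.07 for NM_182572, -1.19 for NM_001672 and -1.15 for NM_021228 on the log2 scale, with 3 arrays in each of 4 groups. All 3 GR+MDFIC Dex arrays, of slide 3, were below all 3 GR+MDFIC vehicle arrays, 1 of which is also of slide 3, for each of them. With slide as a fixed block, which gives the within-slide values, they were -2.21, -1.13 and -0.999, and only that of NM_182572 was called (limma, Benjamini-Hochberg adjusted p = 0.00447, 0.135 and 0.111). A random slide block gave -2.10, -1.18 and -1.12 (adjusted p = 0.000327, 0.0512 and 0.0512), and again only the first was called. With the fixed block, trend and robust variance together, NM_182572 and NM_021228 were called and NM_001672 was not (adjusted p = 0.00385, 0.0277 and 0.622). Dixon's test for an outlying array was not applied, since every group held 3 arrays. The array given the lowest weight in limma was GR+MDFIC vehicle replicate 3, at 0.380.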

How the results depend on the processing

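The count of 3 called differences became 5 with median scaling, 9 with normexp and quantile scaling, 14 with the filter met in at least 1 group, 13 with no filter and 2 with brighter probes only. It was 7 with the mean of an accession's probes and 7 with each probe tested on its own. It was 17 with slide as a fixed block, 1 with it as a random block, and 12 with the fixed block, trend and robust variance. Trend and robust variance alone gave 6, array weights 9, an adjusted p under 0.01 gave 1 and under 0.1 gave 7. Leaving out each array gave 1 to 1142. The retained count of 1352 became 840 with brighter probes only, 532 with slide as a fixed block, 609 with block, trend and robust variance, and 734 at an adjusted p under 0.01. It was 952 to 1300 on leaving out each array. Of the single transcripts, the call of NM_001672 was lost in 12 of 30 alternatives and that of NM_021228 in 11 of 31. The differences of NM_016084 and NM_006145, 2 of the retained examples, were each called in 1 of 31 alternatives, which left out an array. Dex calls in GR cells were 996 with the slide block, and 1183, 1211 and 1210 without GR vehicle replicate 3, Dex replicate 1 and Dex replicate 2. Dex calls in GR+MDFIC cells were 915 with the slide block, and 1922, 2133, 5104, 2145 and 2182 without vehicle replicates 1, 2 and 3 and Dex replicates 2 and 3. Deviations of samples sharing a replicate number had a median correlation of 0.035 over 18 pairs (range -0.306 to 0.223). For 36 pairs with different numbers the median was -0.030 (range -0.259 to 0.218). These overlapping ranges cannot decide whether the numbers pair samples, and the main fit used no pairing. The replicate block gave 2 called differences, 1387 retained responses and 3462 Dex calls in GR+MDFIC cells.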
